A study of Macaca mulatta with 23 samples.

Results

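DNA methylation at the BCL11A locus was described in dissected central amygdala nucleus of 23 young animals of the rhesus macaque, Macaca mulatta. The locus was taken as every position of the deposited table between 60675000 and 60785000 on chromosome 2 of the human build hg19, which gave 233 of 444312 positions. The gene lies on the minus strand and starts near 60.78 Mb, so lower coordinates lie further into the gene. Positions inside the window span 60680464 to 60782356. Just inside its edges the mean levels were 30.43% at 60680464 and 0.706% at 60782356. The nearest measured positions outside it, at 60591840 and 60805799, averaged 9.826% and 55.47%. Exons and introns were not assigned, for want of an hg19 gene model, and distances are given from the start.

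BCL11A is a zinc-finger transcription factor that represses target genes together with chromatin remodelling complexes. It is best known for silencing fetal globin genes in red blood cell precursors. In the brain it takes part in neuron migration, in the growth of axons and dendrites and in the identity of projection neurons, and loss of a gene copy causes a neurodevelopmental disorder in humans. Like many developmental regulators it has a promoter rich in CpG sites. Such promoters usually lack methylation, while CpG sites inside gene bodies are usually methylated.

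The assay was reduced representation bisulfite sequencing, in which the enzyme MspI cuts genomic DNA at CCGG sites and bisulfite converts unmethylated cytosines. Each monkey gave 1 library from 1 hemisphere, 11 from the left and 12 from the right, and monkeys are named by hemisphere and number. The labels give no treatment or genotype. Each monkey had an anxious temperament score, from -1.48 to 1.43 (mean 0.0678 ± 0.739, SD, n = 23), and an age from 1.1 to 2.13 years (mean 1.34 ± 0.219, SD, n = 23). By the first letter of their identifiers the monkeys form an r series of 12 and a B series of 11, a letter that the labels do not explain. The table holds methylation only, so the dissection was not checked against cell type markers.

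Read depth is unknown for these levels, and 2 libraries stood apart at this locus. Values were missing at 42.5% of the 233 positions in left 3 and at 21% in right 9, while the other 21 libraries lacked between 0 and 17.2%. Of the values right 9 had, 79.9% were exactly 0 or 100%, against 17.6% to 54.2% in the other 21 and 66.4% in left 3. At the 80 positions whose mean without these 2 libraries was above 80%, right 9 was below 20% at 6 of its 44 values, and the other 21 libraries at 0 of 1658. At the 136 positions with such a mean below 20%, right 9 was above 20% at 16 of 126 values and the other 21 libraries at 14 of 2755. Results that rest on left 3 or right 9 are therefore given with and without them.

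The locus held a long stretch of almost unmethylated positions around its start and mostly methylated positions further in. Neighbouring positions were joined into a run where no gap exceeded 200 bp and 3 or more were present, and 232 of the 233 positions fell into 11 runs. The 6 runs nearest the start, with 117 positions from 60776626 to 60782356 (5731 bp), are called the 5′ block here. The next measured position lay 22375 bp further into the gene. Beyond it came 5 runs and 1 single position, 116 positions in all, of which 80 averaged above 80%, 19 below 20% and 17 between.

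**Figure D1:**
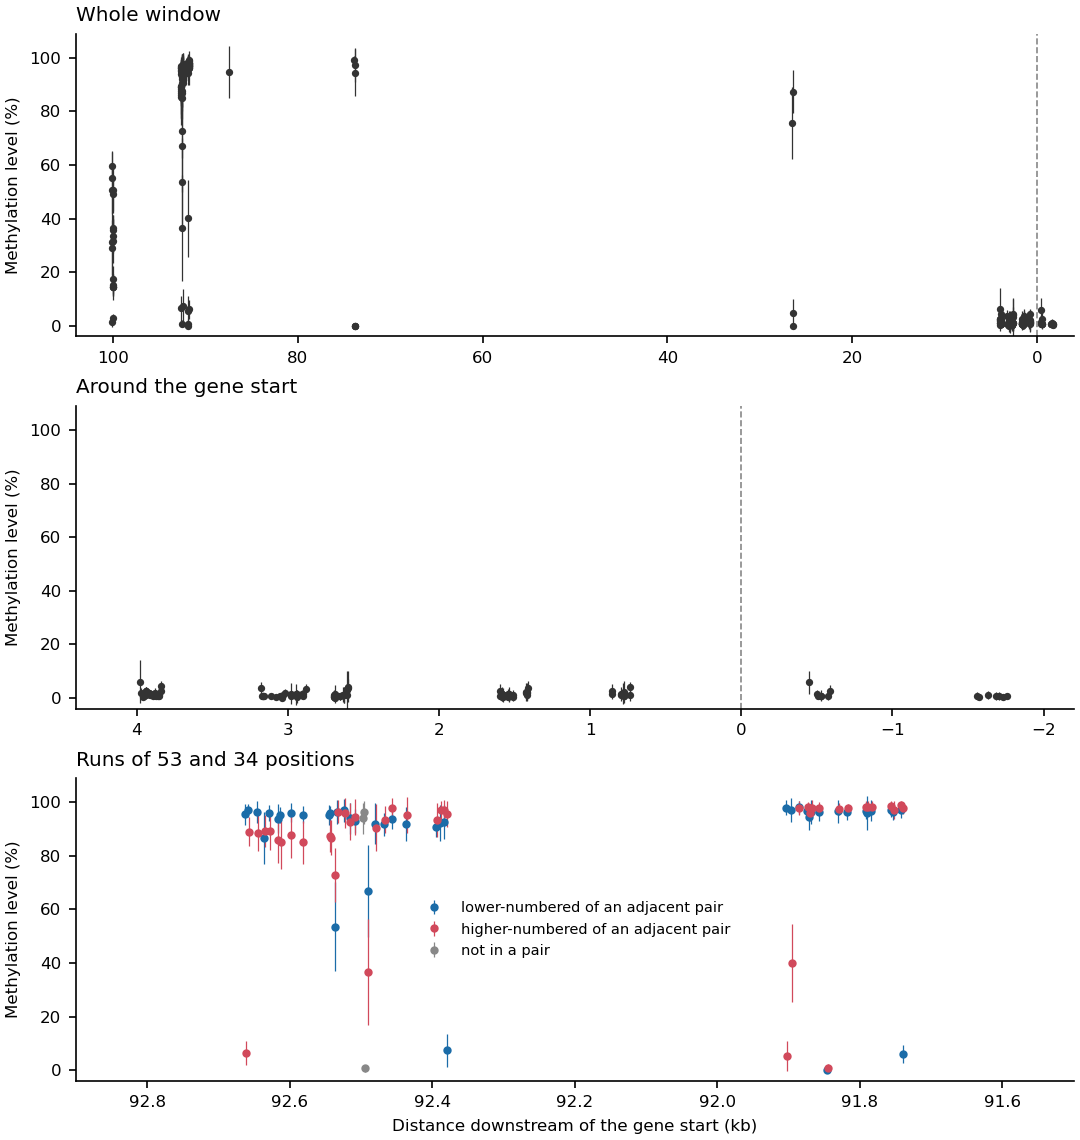
Mean methylation level (%) of each position over the 21 monkeys other than left 3 and right 9, with the SD as bars, against the distance downstream of the gene start (kb, increasing to the left; the dashed line marks the start). All 117 positions around the start lie low, and in the lowest panel a few positions of 2 methylated runs fall far below their neighbours, among them 1 position of the outermost adjacent pair at each end.

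All 117 positions of the 5′ block had a mean level below 20%, and 111 a mean below 5%. Its mean level per monkey was 1.58% ± 1.365 (SD, n = 23), with a lowest value of 0.493%, a median of 1.228% and a highest of 7.325%. The highest was right 9, and the next, right 10, stood at 2.761%. Without left 3 and right 9 the block averaged 1.358% ± 0.538 (SD, n = 21), and 115 of its 117 positions were below 5%. The block was as low without these 2 libraries as with them.

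The 6 runs of the block had means from 1.468% to 1.747% over all monkeys with values, and from 0.706% to 1.728% without left 3 and right 9. The lowest of the latter was the run farthest upstream and the highest the other upstream run. The run of 12 positions centred 796 bp downstream of the start averaged 1.671% ± 0.8435 (SD, n = 23), with levels from 0.667% to 3.167%. The run of 25 positions centred 1504 bp downstream averaged 1.468% ± 1.34 (SD, n = 22), and that of 36 positions 2888 bp downstream 1.562% ± 2.16 (SD, n = 23). The run of 30 positions 3906 bp downstream averaged 1.693% ± 0.909 (SD, n = 23). Upstream of the start, 2 runs of 7 positions each averaged 1.747% ± 0.913 (SD, n = 22) and 1.556% ± 3.70 (SD, n = 18). Right 9 was the highest monkey in 4 of the 6 runs, at 11.12% in the run of 36 and at 16% in the run farthest upstream.

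In the runs of 53 and 34 positions inside the gene the mean level was high, and even over the monkeys other than left 3 and right 9. The run of 53 positions, from 60687937 to 60688221 and centred 92521 bp downstream of the start, averaged 84% ± 6.645 (SD, n = 23). Right 9, with values at 18 of its 53 positions, stood at 55.06%, and the other monkeys ran from 79.19% to 88%. Without left 3 and right 9 the mean was 85.19% ± 2.095 (SD, n = 21). The run of 34 positions, from 60688696 to 60688861, averaged 85.51% ± 3.523 (SD, n = 23), with a lowest level of 80.97% and a median of 84.82%. Its highest level, 100%, was that of left 3, which had values at 4 of the 34 positions. Without the 2 sparse libraries this run averaged 84.58% with an SD of 0.995 (n = 21). For comparison, the 1756 runs elsewhere in the table with a mean within 5 points of it had a median SD of 4.63 over the same 21 monkeys. For the run of 53 positions the median SD of 2098 such runs was 4.47. Runs with more positions average out more of the noise of single positions, and these comparison runs were not matched for length.

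The run farthest from the start was at an intermediate level. Its 18 positions, from 60680464 to 60680631 and centred 100052 bp downstream, averaged 30.81% ± 4.23 (SD, n = 23), from 22.39% in left 10 to 41.94% in right 9, with a median of 31%. None of the 18 averaged above 80%, and their means ran from 1.227% to 60.39%. The order of the sites was alike over the monkeys: the levels of single monkeys at the 18 positions correlated with the mean of the others at r = 0.893 or more in the 21 monkeys other than left 3 and right 9, and at 0.738 or more in all 23. These correlations are across positions, which share fragments and are not independent replicates. Neighbouring sites differed from each other, and inside the run the 2 positions of a site mostly did not. At 60680526 and 60680527 the means were 56.52% and 60.39%, at 60680562 and 60680563 they were 16.52% and 16.74%, and at 60680573 and 60680574 they were 33.35% and 34.22%. The 7 inside pairs differed by a median of 1.09 points. The largest difference among them was at 60680517 and 60680518, with 51.13% and 30.35%, the former higher in 22 of 23 monkeys. The mean of this run thus averages over sites at different levels.

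The remaining runs of the gene body were short. The run of 6 positions from 60706727 to 60706791 averaged 48.58% ± 1.731 (SD, n = 21), yet no position of it was near this level: 3 positions averaged 94.7% or more and the other 3 were 0 in all 21 monkeys with values. The run of 4 positions from 60754109 to 60754250 averaged 42.33% ± 5.153 (SD, n = 22) and had a position at 0 in all 22 monkeys. A position of the 5′ block was also 0 in all 23 monkeys. In all, 5 of the 233 positions were 0 in every monkey. The reads are macaque and the coordinates human, and whether macaques carry a CpG at these 5 positions was not tested. The single position outside a run, 60693146, averaged 95.3% ± 9.21 (SD, n = 19).

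**Figure D2:**
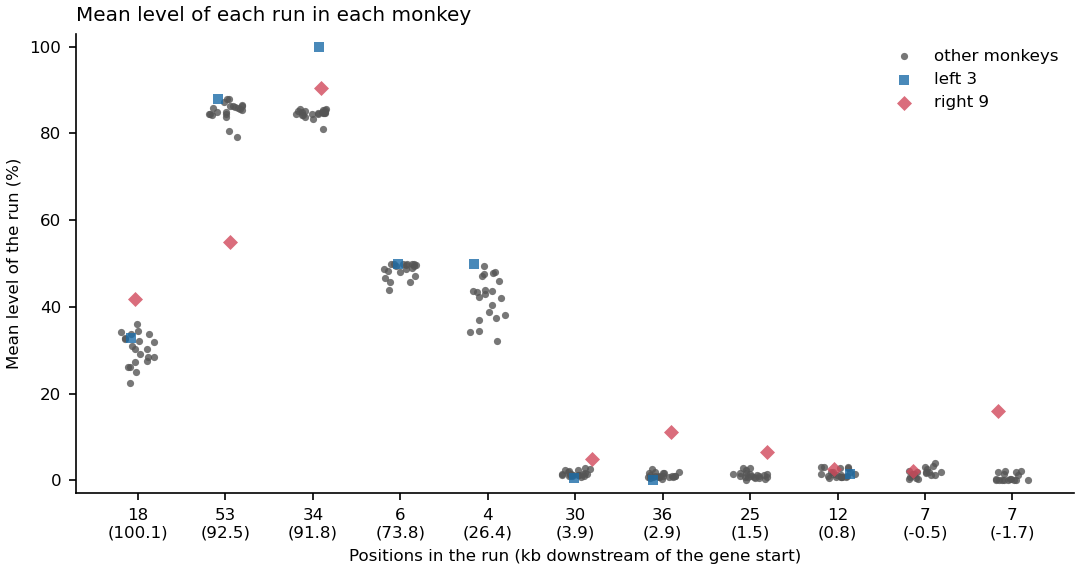
Mean methylation level (%) of each of the 11 runs in each monkey, ordered from the far end of the gene to upstream of the start; labels give the number of positions and the distance in kb downstream of the start. Left 3 and right 9 are marked, and right 9 lies far below the others in the run of 53 positions, at 55.06%, and highest in 4 runs of the 5′ block.

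The level near the start was compared with that of the gene body within each monkey. With the promoter taken as positions within 2000 bp of the start (51 positions) and the gene body as the 182 positions further in, the promoter averaged 1.559% ± 1.199 and the body 46.65% ± 3.063 (SD, n = 23). The difference was -45.1 ± 3.691 points (SD, n = 23), and the promoter was lower in 23 of 23 monkeys, with differences from -49.13 to -33.92 (2-sided sign-flip permutation test, p = 1e-05, the smallest the 100000 resamples can give). This split puts 2 runs of the 5′ block, 66 positions, into the gene body. With the promoter widened to 5000 bp, which takes in the whole block, the difference was -71.27 ± 2.562 points (SD, n = 23; permutation p = 1e-05), with a body level of 72.85% ± 1.678. Positions with a value in all 23 monkeys gave -25.14 points, with a body level of 26.82% under the 2000 bp split. Right 9 had values at 18 positions of the run of 53 and left 3 at 4 of the run of 34. This set thus leaves out most positions of these methylated runs, and it keeps the whole run of 30 positions of the 5′ block in the body.

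Promoter and gene body were then compared over monkeys. Pearson's r between their levels was -0.382 (permutation p = 0.0688, adjusted p = 0.0688 over 2 relations), and Spearman's rho was -0.139 (permutation p = 0.526, adjusted p = 0.526). The negative r rested on right 9: without it r was 0.0292, and without right 9 and right 10, the monkeys farthest from the median promoter level, it was 0.00982. Without left 3 alone r was -0.592 (permutation p = 0.0341), with right 9 still included. Within the r series r was -0.442 (n = 12) and within the B series 0.211 (n = 11).

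The gene body level followed the mean level of the whole library with an r of 0.704 (permutation p = 0.0011, adjusted p = 0.0022) and a rho of 0.535 (permutation p = 0.00919, adjusted p = 0.0184). Without left 3 and right 12, farthest from the median on the library mean, r was 0.588. It was 0.213 without left 3 and right 9 (permutation p = 0.355). It was 0.76 in the r series and 0.251 in the B series, so the relation was weaker in the series that lacks both sparse libraries, and this difference was not tested. At positions with a value in all monkeys, which leave out most of the runs of 53 and 34 positions, r was 0.678 (permutation p = 0.00033). For the gene body beyond 5000 bp, which holds no position of the 5′ block, r over all monkeys was 0.558 (permutation p = 0.00682). Missing values change which positions enter a mean of the body. Left 3 had values at 36 of the run of 53 and 4 of the run of 34 positions, where its means, 88% and 100%, were the highest. In the 2 runs of the 5′ block that the 2000 bp split counts in the body, it had values at 30 of 30 and 33 of 36 positions. The part of missing values in the relation over all positions was not tested.

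The methylated runs also held positions far below their neighbours. Adjacent positions of the table, as the cytosines on both strands of a CpG would be, formed 94 pairs in the locus. In the 4 outermost pairs at the ends of the runs of 53 and 34 positions, the outer position was methylated and the inner was not. At 60687937 and 60687938 the means were 95.52% ± 3.829 and 6.429% ± 4.621 (SD, n = 21). At 60688220 and 60688221 they were 7.13% ± 6.13 and 95.48% ± 5.212 (SD, n = 23). At the ends of the run of 34 positions they were 98.14% and 5.048% (n = 21), and 9.773% and 97.86% (n = 22). Every monkey with both values had the outer position higher in all 4 pairs. In the run of 18 positions the outer position was also higher, with 30.43% against 1.286% at one end (21 of 21 monkeys) and 13.65% against 2.957% at the other (22 of 23).

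The inside pairs of these runs mostly matched. In the run of 53 positions the 23 inside pairs differed by a median of 5.26 points, and 0 of them by more than 50 points. In the run of 34 the 15 inside pairs differed by a median of 1.41 points, and 1 by more than 50. In that pair 60688703 averaged 97.14% and 60688704 averaged 42.77% ± 19.03 (SD, n = 22), the former higher in 21 of 22 monkeys. Left 4 had values at this pair but none at the outermost pair before it, 60688696 and 60688697. Whether a fragment ends between these pairs was not tested. Over the whole table, 3000 of 3936 outermost pairs with a level above 80% had the other position below 20% (76.2%), and 2992 of these had the low position on the inner side. Among inside pairs the share was 511 of 18509 (2.76%). The labels' protocol has MspI digestion followed by end repair of the fragments, and the part of that step in the low inner positions was not tested.

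At 1 inside site of the run of 34 positions both positions were unmethylated: 60688754 and 60688755 averaged 0.0455% and 0.727% (n = 22) between neighbours above 94%. In the run of 53 positions the pairs nearer its low-coordinate end differed in a steady direction. From 60687941 to 60688058, 9 of 10 pairs had the lower-numbered position higher, by 6.409 to 9.455 points. The exception, 60687964 and 60687965, differed by -2.227 ± 9.314 points (SD, n = 22). A pair in the middle of that stretch, 60688018 and 60688019, averaged 95.14% ± 3.197 and 85.68% ± 8.323 (SD, n = 22), with the lower-numbered position higher in 20 of 22 monkeys. From 60688132 to 60688217 all 6 pairs differed the other way, by -1.304 to -5.261 points. At each of these 16 pairs the mean difference was at most 1.5 times its SD over monkeys. This SD is the spread of single monkeys and not the error of the mean difference, and the differences were not tested.

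A few positions varied far more over monkeys than the rest. The 3 positions with the largest SD in all monkeys included 2 in the 5′ block, 60782233 (SD 23.35, n = 18) and 60779015 (SD 21.17, n = 22), where right 9 stood at 100% and no other monkey above 5% and 8%. Over the other 21 monkeys their SDs were 1.453 and 2.638. The third was 60688110 in the run of 53 positions, which averaged 33.91% ± 20.89 (SD, n = 23) with a median of 30%. Over the same 21 monkeys the largest SDs were at 60688110 (19.84), its neighbour 60688109 (17.17), 60688063 (16.67) and 60680518 in the far run (14.62). Levels there covered 8% to 77%, 30% to 90%, 25% to 89% and 9% to 65% over the 21 monkeys.

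The levels of these 4 positions were correlated over monkeys, with 60688109 moving opposite to each of the others. Missing values changed beside them. Right 9 had no value at 60688105 but had values at 60688109 and 60688110. Left 3 had a value at 60688063 but none from 60688064 to 60688105, and none at 60680465 but values at 60680517 and 60680518. Whether these positions lie near fragment ends, and the part of end repair in their levels, was not tested. In right 2, 60688110 stood at 77% and 60688109 at 30%, and in left 4 they stood at 8% and 90%. Their r over the 21 monkeys was -0.883 (permutation p = 1e-05, the smallest possible, adjusted p = 3e-05 over 6 relations), and rho was -0.852 (permutation p = 3e-05, adjusted p = 6e-05). The sum of their levels averaged 103.5 ± 9.32 points (SD, n = 21). Leaving out the 2 monkeys farthest from the median gave r = -0.823, and r was -0.848 in the r series (n = 10) and -0.923 in the B series (n = 11).

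The relation reached across 2 runs. The position 60680518, which lies 7592 bp away from 60688110 in the run of 18, had an r of 0.782 with it (permutation p = 4e-05, adjusted p = 8e-05; its rho was 0.808, permutation p = 2e-05), with 0.76 without the 2 farthest monkeys, 0.704 in the r series and 0.841 in the B series. Its r with 60688109 was -0.748 (permutation p = 0.00012, adjusted p = 0.00018), and its rho -0.751 (permutation p = 0.00014, adjusted p = 0.00021). Between 60688063 and 60688110 r was 0.615 (permutation p = 0.00273, adjusted p = 0.00286) and rho 0.626 (permutation p = 0.00286, adjusted p = 0.00343), and r was 0.22 in the r series and 0.791 in the B series. The r of 60688063 with 60680518 was 0.618, with 0.192 in the r series and 0.813 in the B series. With 60688109 it was -0.807, with -0.474 in the r series and -0.951 in the B series. The 4 positions were picked by their SD and not by these relations. Elsewhere in the table, 224 of 205936 positions had r of 0.8 or more with 60688110 over these monkeys and 54 had -0.8 or less. For 60680518 these counts were 282 and 147, and for 60688063 they were 5 and 10. For 60688109, 45 positions had r of 0.8 or more, and a larger number had -0.8 or less. Such relations were thus not limited to the locus. Over all monkeys with values, the slopes of the 4 positions on the score were smaller than, or within 1.5 times, their SE. At 60688110, 60688109, 60688063 and 60680518 they were 0.829 ± 6.23, -2.539 ± 5.42, 2.461 ± 5.01 and 5.883 ± 4.28 points per score unit (SE, n = 22 or 23). Without left 3 and right 9 the slope at 60680518, where left 3 stood at 0%, was 6.419 ± 3.85 (SE, n = 21), outside that bound.

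**Figure D3:**
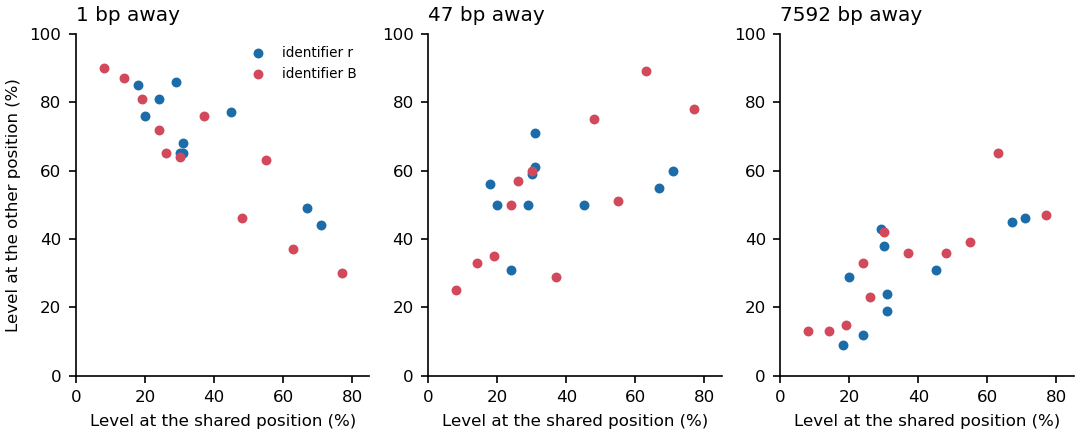
Level (%) at 3 positions against the level (%) at 60688110, the shared position, in the 21 monkeys other than left 3 and right 9, coloured by identifier series. The neighbour 1 bp away falls from 90% to 30% as the shared position goes from 8% to 77%, while the positions 47 bp and 7592 bp away rise.

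The study related methylation to anxious temperament with age as the covariate. BCL11A was chosen with earlier results of these monkeys in view, so the slopes on the score are given as a description, without a test. The whole table was fitted with limma, and 115 of the 233 positions passed its filters, which asked for 20 or more monkeys with a value and for levels spread over 10 points or more. Of the 115, 6 had an unadjusted p under 0.05, a count from the contrast behind the choice of the gene, from which nothing is read. Over the whole table this share was 3.12%, and 0 of its 192151 positions tested passed after adjustment. All 6 slopes were positive, as were 2864 of the 5991 over the table. The count was 1 among the 49 locus positions with values in all 23 monkeys, against 1426 of 72244 over the table. It was 10 of 114 without left 11, the monkey with the highest score, against 6427 of 193059 over the table. Of the 6, only 60688217 had values in all 23 monkeys. The others had values in 20 or 22, so the former setting removes them before the fit and cannot show whether they hold. The median slope of the 115 was 0.658 points per score unit, against 0.0912 over the 192151 positions tested, and 80 of the 115 slopes were positive, against 52.5% over the table. Neighbouring positions share fragments and monkeys, so these are not independent.

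The 6 positions all lay in the run of 53. At 60688217 the level averaged 96.91% ± 3.988 (SD, n = 23), from 84% to 100% with a median of 98%, and the slope was 2.827 ± 1.03 points per score unit (SE). At 60688076 the levels ran from 83% to 100% with a median of 99% (n = 20), 10 of the 20 monkeys were at 100%, and the slope was 3.068 ± 1.18. The adjacent pair 60688001 and 60688002 had slopes of 2.482 ± 0.993 and 4.742 ± 2.26, with levels of 88% to 100% and 71% to 100%. The slope at 60687987 was 6.26 ± 2.78, with levels from 61% to 100%, and that at 60687972 was 4.08 ± 1.95. All of these positions averaged 86% or more. Right 4, with the lowest score of -1.48, had 96% at 60688217, and left 11, with the highest score of 1.43, had 100%. At 60687987 these monkeys stood at 62% and 89%, and the lowest level there, 61%, was that of right 11 with a score of -0.6.

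Averaged over runs, the slopes were small. Of the 11 runs, 7 passed the filters of 20 or more monkeys with a value and a range of at least 5 points. Without left 3 and right 9, 4 of them passed: the runs of 34, 36 and 25 positions had that range only with these libraries. The run farthest upstream spanned 0 to 16% but had values in 18 monkeys. As a description, 0 of the 7 had an unadjusted p under 0.05, against 3.2% of all runs tested. The run of 18 positions had the largest slope, 2.216 ± 1.17 points per score unit (SE, n = 23), and 16 of its 18 positions had positive slopes. Its level was 27.33% in right 4 and 27.44% in left 11, close together although these monkeys are at both ends of the score. Single monkeys left out moved this slope between 1.681 and 3.106, and without left 3 and right 9 it was 2.022 ± 0.945 (SE, n = 21). It was 5.561 ± 1.91 in the r series (n = 12) and 0.147 ± 1.36 in the B series (n = 11), and 0.847 ± 1.71 in left and 3.536 ± 1.71 in right samples. Neither of these differences was tested. The run of 53 positions had a slope of 0.527 ± 1.96 (SE, n = 23), which was 0.854 ± 0.525 without the 2 sparse libraries, and 35 of its 53 positions had positive slopes. The run of 34 had 0.450 ± 1.04 and 0.116 ± 0.285 without them. The level of the 5′ block had a slope of 0.0599 ± 0.41 (SE, n = 23), and of -0.000173 ± 0.162 (SE, n = 21) without left 3 and right 9. From the farthest into the gene to the farthest upstream, its runs had positive slopes at 13 of 30, 22 of 35, 11 of 25, 9 of 12, 3 of 7 and 2 of 7 positions, leaving out the position at 0 in every monkey.

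**Figure D4:**
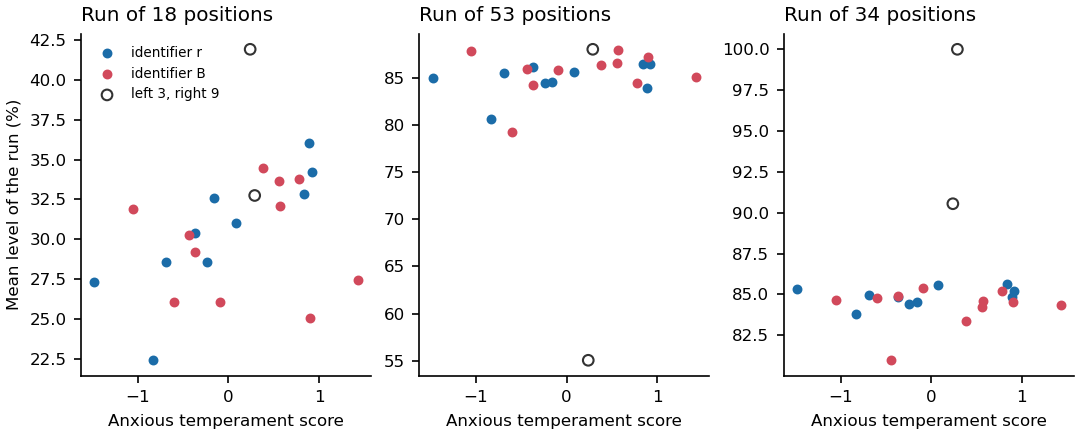
Mean level (%) of the 3 runs with the most positions beyond the 5′ block against the anxious temperament score, 1 point per monkey. Points are coloured by identifier series, with left 3 and right 9 as open circles, and the vertical axes differ. The run of 18 positions has a slope of 2.216 points per score unit and left 8, at a score of 0.9, stands at 25.06%; the other 2 runs have slopes of 0.527 and 0.450.

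Age and hemisphere did not enter the choice of the gene and were tested. For age, 0 of the 115 positions and 0 of the 7 runs passed limma at an adjusted p under 0.05, where 0.0531% of all positions and 0.0565% of all runs did. Without adjustment, 3 positions and 0 runs had a p under 0.05, against 4.06% of positions and 4.81% of runs over the table. These values moved with left 1, the oldest monkey. Without it 12 of 115 positions of the locus had an unadjusted p under 0.05, against 6780 of 192621 over the table, and the limma calls over the whole table went from 102 positions and 12 runs to 0 and 0. Leaving out any other single monkey gave 1 to 5 such positions in the locus. The smallest p was at 60779818 in the 5′ block, where the level averaged 2.238% ± 4.774 (SD, n = 21) and the slope was 12.29 ± 3.89 points per year (SE; limma adjusted p = 0.666). There left 1, aged 2.13 years, stood at 17% and right 9 at 14%, and no other monkey above 7%. With left 3 and right 9 left out this position passed (13.7 ± 2.45 points per year, limma adjusted p = 0.0445). It was 1 of 102 locus positions tested in that setting, where 185 of 206038 passed over the table. Without left 1 as well its range fell below the filter. The next were 60688704, with a slope of -36.16 ± 17.6 (limma adjusted p = 1), and 60779183, with -6.301 ± 2.94 (limma adjusted p = 1).

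For hemisphere, adjusted for score and age, 0 of the 115 positions and 0 of the 7 runs passed limma, as in the whole table (0 positions and 0 runs). Without adjustment, 5 positions and 0 runs had a p under 0.05, against 3.48% and 3.12% over the table. The smallest p was at 60680517 in the run of 18. Left samples averaged 45.45% ± 6.802 (SD, n = 11) there and right samples 56.33% ± 8.595 (SD, n = 12), and right exceeded left by 11.81 ± 2.91 points in the fit (SE; limma adjusted p = 0.93). For the whole run the means were 29.82% ± 3.805 (left) and 31.72% ± 4.553 (right), and the fitted difference was 2.328 ± 1.66 points (SE; limma adjusted p = 0.975). At 60688729 and 60688084, both near full methylation, right samples were higher by 5.123 ± 1.82 and 6.077 ± 2.33 points (SE; limma adjusted p = 0.93 for both). For the run of 53 they were 85.41% ± 1.926 (left) and 82.72% ± 9.009 (right), the latter including right 9.

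Runs elsewhere whose level followed the locus most closely were sought for the gene body run with the largest SD, the run of 53, among 21246 runs. The highest correlations over monkeys were r = 0.961 (n = 22) with 12 positions of chromosome 3 between 42265000 and 42265245 and r = 0.958 (n = 23) with 17 of chromosome 16 between 3139667 and 3139814. Right 9 stood at 0 in both, as it stood lowest in the run of 53. Among 22221 runs compared over the other 21 monkeys, the highest were 0.839 with 6 positions of chromosome 6 between 106235227 and 106235371 and 0.835 with 15 of chromosome 10 between 82363341 and 82363461, which are other runs. The run of 53 has the largest SD of the gene body runs through right 9. Without left 3 and right 9 the largest was that of the run of 4 positions (4.98), whose highest r was 0.767 (n = 20), with 18 positions of chromosome 19 between 11032083 and 11032187. These values are the highest of many and are given as a description.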

How the data were processed

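Per the labels' protocols, genomic DNA was cut with MspI, end-repaired, ligated to methylated adapters, size-selected, bisulfite-converted and sequenced. Bismark 0.11.1 and hg19 are named in the submitters' processing notes. The deposited table gives each position's methylated fraction to 2 decimals, with missing values and no read counts, so depth, intervals and a coverage minimum could not be used. The authors' coverage filters and strand handling are unknown here.

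Fractions were multiplied by 100. All positions of the table went into limma models (version 3.58.1, R 4.3.3) of score and age, with hemisphere added for its own test, variances moderated along a mean trend, missing values left out and Benjamini-Hochberg adjustment over all units tested. Coefficients came from least squares solved row by row, followed by limma's variance step, and this was tested on simulated data. SEs are those of ordinary least squares. Runs were averaged per monkey over the values present. Permutation tests used 100000 resamples (scipy 1.17.1, numpy 2.4.6). Named positions were the 5 of the locus with the smallest p for the score, 3 for age, 3 for hemisphere, the 3 positions and runs of largest SD, and the 5 runs elsewhere most like the gene body run of largest SD. The sixth position for the score, the 4 positions of largest SD without left 3 and right 9, the adjacent pairs and the positions at 0 were added after their values were seen. The locus, its window and the lists were chosen with earlier results of these data known. A list of partner genes of BCL11A was not analysed here, since no annotation of hg19 was used. Each library comes from a different monkey, with 1 library per monkey. The p-values thus measure the spread between libraries, in which differences between monkeys and between library preparations cannot be told apart.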

Additional observations from a re-analysis of the deposited data

How the results depend on the processing

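The promoter stayed below the gene body under all 29 alternatives run, from -45.6 to -44.91 points with single monkeys left out. The correlation of promoter and gene body ran from -0.592 (without left 3) to 0.0292 (without right 9), and that of gene body and library mean from 0.495 to 0.784, with 0.213 without left 3 and right 9. The count of positions at an unadjusted p under 0.05 for the score was 2 on the arcsine scale, 2 with a range of at least 20 points (70 tested) and 1 with values in all monkeys (49 tested). Over the whole table these settings gave 5702 of 192151, 3860 of 128374 and 1426 of 72244 positions. The range filter and the demand for all values each remove some of the 6 positions of the main fit before fitting. With single monkeys left out the count ran from 3 (without right 4, right 11 or right 12) to 10 (without left 11). Over the table the former gave, in that order, 5865 of 202882, 6009 of 192890 and 6102 of 197481, and the latter 6427 of 193059. For runs that count was 1 with the identifier series as a covariate and 0 to 1 when each monkey was dropped in turn (1 for left 8, right 9 or left 11). Over the table the settings with a count of 1 gave, in that order, 634 of 21253, 690 of 21333, 860 of 21126 and 739 of 21382 runs. Positions called for age numbered 1 of 102 without left 3 and right 9 (185 of 206038 over the table) and 0 under the 32 other alternatives. No run was called for age, and no position or run for hemisphere, under the alternatives run, where positions at an unadjusted p under 0.05 for hemisphere numbered 1 to 8. The 1 was among 49 with values in all monkeys (2575 of 72244 over the table). The 8 were among 212 without a range filter (11536 of 351481 over the table). Where a value moved with all monkeys and positions kept, the cause was not tested. A higher coverage minimum was not run, since the table gives no coverage. The alternatives that leave out the inner position of the outermost pairs, combine the wider promoter with fewer libraries, or move the gene body limit for the library mean were chosen after seeing the data. No paired analysis was possible because left and right samples come from different monkeys, whose numbers are only names.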
